A study of Mus musculus with 83 samples.

Results

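Expression of the Notch pathway and of the secretory fate factors it opposes was followed across age in the mouse colon, in 10 of the 37764 genes of the count table. The genes were chosen by symbol, as members of the pathway, and comprise the receptors Notch1, Notch2 and Notch3, the ligands Jag1, Jag2, Dll1 and Dll4, the repressor Hes1, and the transcription factors Atoh1 and Gfi1. All 10 were counted in every mouse, with between 209 (Jag2) and 8292 (Atoh1) read pairs per mouse, and all 10 were among the 18325 genes that passed the filter on low counts. Between 3 and 28 mo, Notch3 rose and Atoh1 and Gfi1 fell, and Notch1 followed a course that was high at both ends of life and low at 9 mo. Jag1, Jag2, Dll4 and Hes1 were called in no comparison.

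The data are RNA-seq counts from the proximal section of the colon of 83 male C57BL/6J/Ukj mice, kept for aging with no other treatment. There were 16 mice at 3 mo, 16 at 9 mo, 16 at 15 mo, 17 at 24 mo and 18 at 28 mo, each mouse giving 1 library of polyadenylated RNA. Libraries were prepared in 3 batches that each held 4 to 7 mice of every age. The tissue was whole colon with muscle and stroma, and markers of epithelium, smooth muscle, vessels and immune cells were all detected.

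Notch receptors are cut after a Delta or Jagged ligand on a neighbouring cell binds them, and the freed intracellular part enters the nucleus and activates transcription with the DNA-binding protein RBPJ. In the intestinal crypt this induces Hes1, which represses Atoh1 and so favours the absorptive fate, whereas cells that escape the signal express Atoh1 and Delta ligands and become goblet, enteroendocrine or tuft cells. Gfi1 acts downstream of Atoh1 in the choice between secretory fates, and outside the epithelium Notch3 is known as the receptor of vascular smooth muscle and pericytes and Dll4 as an endothelial ligand.

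On GRCm38 (GENCODE M21) the receptor genes Notch1, Notch2 and Notch3 lie at chr2:26457903-26516663, chr3:98013527-98150361 and chr17:32120820-32166852. The ligand genes Jag1, Jag2, Dll1 and Dll4 lie at chr2:137081456-137116644, chr12:112907819-112929776, chr17:15367354-15376872 and chr2:119325784-119335962. Hes1, Atoh1 and Gfi1 lie at chr16:30064384-30067796, chr6:64729125-64731245 and chr5:107716657-107726036. The 250 bases before the start site are shown for the 4 genes whose age course carries the results, from the RefSeq promoter set on GRCm38.p6, which matched 9 of the 10 genes (all but Hes1). Each runs 5′ to 3′ on the strand of the gene, and capitals mark the N-box CACNAG, a motif bound by HES repressors, on either strand. Notch3 lies at chr17:32166891-32167140 on the minus strand, Notch1 at chr2:26503823-26504072 on the minus strand, Atoh1 at chr6:64728875-64729124 on the plus strand and Gfi1 at chr5:107725806-107726055 on the minus strand.
Notch3: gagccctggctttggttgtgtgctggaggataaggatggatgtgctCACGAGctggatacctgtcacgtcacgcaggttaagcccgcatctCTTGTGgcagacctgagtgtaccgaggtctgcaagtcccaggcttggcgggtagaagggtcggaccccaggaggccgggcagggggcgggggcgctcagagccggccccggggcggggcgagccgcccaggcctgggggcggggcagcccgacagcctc
Notch1: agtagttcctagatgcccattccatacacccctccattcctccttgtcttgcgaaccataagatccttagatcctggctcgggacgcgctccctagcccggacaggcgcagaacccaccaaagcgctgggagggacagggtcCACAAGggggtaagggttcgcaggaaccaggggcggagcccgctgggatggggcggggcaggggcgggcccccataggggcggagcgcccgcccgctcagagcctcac
Atoh1: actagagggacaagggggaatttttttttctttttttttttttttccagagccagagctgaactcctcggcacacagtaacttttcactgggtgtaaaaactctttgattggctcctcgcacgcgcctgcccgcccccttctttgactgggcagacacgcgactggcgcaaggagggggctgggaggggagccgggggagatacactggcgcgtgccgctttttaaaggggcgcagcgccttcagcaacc
Gfi1: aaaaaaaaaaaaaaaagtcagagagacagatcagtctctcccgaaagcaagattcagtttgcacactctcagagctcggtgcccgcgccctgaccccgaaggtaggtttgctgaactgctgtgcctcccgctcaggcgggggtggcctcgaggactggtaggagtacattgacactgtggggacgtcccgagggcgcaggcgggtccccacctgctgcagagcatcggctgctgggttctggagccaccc
The Notch3 window held 2 N-boxes, starting 204 and 159 bases before the start site, and the Notch1 window held 1, at 108 bases. No N-box was found in the windows of Atoh1 and Gfi1. Of the 11 windows of the 9 genes, since Dll1 and Gfi1 have 2 start sites each, 4 held an N-box (Notch1, Notch2, Notch3 and Dll4), beside 36.7% of all 32851 windows. The RBPJ motif GTGGGAA was in none of the 11 windows and in 5.42% of all windows. The E-box CAGCTG was in 2 of the 11 windows (Jag1 and Dll1) and in 13.001% of all, and the E-box CAGATG in none of the 11 and in 14.4% of all. CpG dinucleotides numbered 17 in the Notch3 window, 16 in that of Notch1, 14 in that of Atoh1 and 13 in that of Gfi1, beside a median of 6 over all windows and 54 in that of Jag2. The Gfi1 window lies mostly within the longer Gfi1 gene model of GENCODE M21, which starts at chr5:107726036 on the minus strand. It also lies over an exon of a noncoding antisense transcript. The Notch1 window lies within the longer gene model of GENCODE M21 but in none of its exons. A motif match in these windows is a description of the letters only.

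Library depth, as pairs assigned to genes, spanned 23026370 to 75838290 (median 35495123). No pair of mice looked like a repeated library: in each of the 649 same-age pairs the counts varied at least 11.7 times as much as sampling alone would give. The libraries of 15 mo replicate 16 and 28 mo replicate 13 stood apart, with the highest shares of mitochondrial reads of the series (5.86% and 5.75%, beside at most 4.70% in the others). The 15 mo library gave the lowest value of its age for each of the 10 genes, the lowest summed level of 8 epithelial markers in CPM, the counts scaled to a common library size (9746 against at least 12435 CPM in the other 15 mo mice) and of 12 endothelial markers (120 against at least 162). The 28 mo library had the lowest median correlation with its age group of all 83 (0.977), and was the lowest of its age for Notch3, Jag2, Hes1 and the epithelial and endothelial sums and the highest for Notch1 and Jag1. Values without these libraries are given where they change a call of the 10 genes. Summed levels of 8 smooth muscle markers ranged from 907 to 5481 CPM at 3 mo and from 2697 to 5003 at 28 mo, and the lowest mice were those of 3 and 9 mo.

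Levels between genes were compared per length, in TPM, which divides by exon length and scales each mouse to the same total, over all 83 mice. Atoh1 was the most abundant (169 ± 31.5 TPM, SD, n = 83), followed by Hes1 (93.3 ± 10.5) and Gfi1 (19.1 ± 5.77). Jag1 (14.1 ± 2.03) and Dll4 (14.1 ± 2.05) did not differ beyond their spread, Jag1 being the higher in 46 of the 83 mice. Notch1 reached 10.6 ± 1.66 TPM, Dll1 8.92 ± 1.85 and Notch2 7.34 ± 1.23. Notch3 (5.18 ± 1.34) and Jag2 (5.14 ± 0.815) came last and also lay together, with Notch3 above Jag2 in 38 of the 83 mice. Atoh1 was above Hes1 and Hes1 above Gfi1 in all 83 mice, so the top of this order did not depend on age.

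Within each gene, ages were compared in CPM. A gene was called at an adjusted p below 0.1 (edgeR quasi-likelihood test with age and batch over all 83 mice, Benjamini-Hochberg adjustment over all 18325 genes). Log2 fold changes are later minus earlier age, with their standard error (SE). Across the 5 ages, 5 of the 10 genes differed (Notch1, Notch2, Notch3, Atoh1 and Gfi1), beside 54.9% of all genes tested. The Gfi1 call was lost with epithelial and smooth muscle covariates. The course of 2 genes, Notch1 and Notch3, departed from a straight line in age, beside 16.2% of all genes, but the calls of Notch2 and Notch3 in this test changed with the processing.

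**Figure D1:**
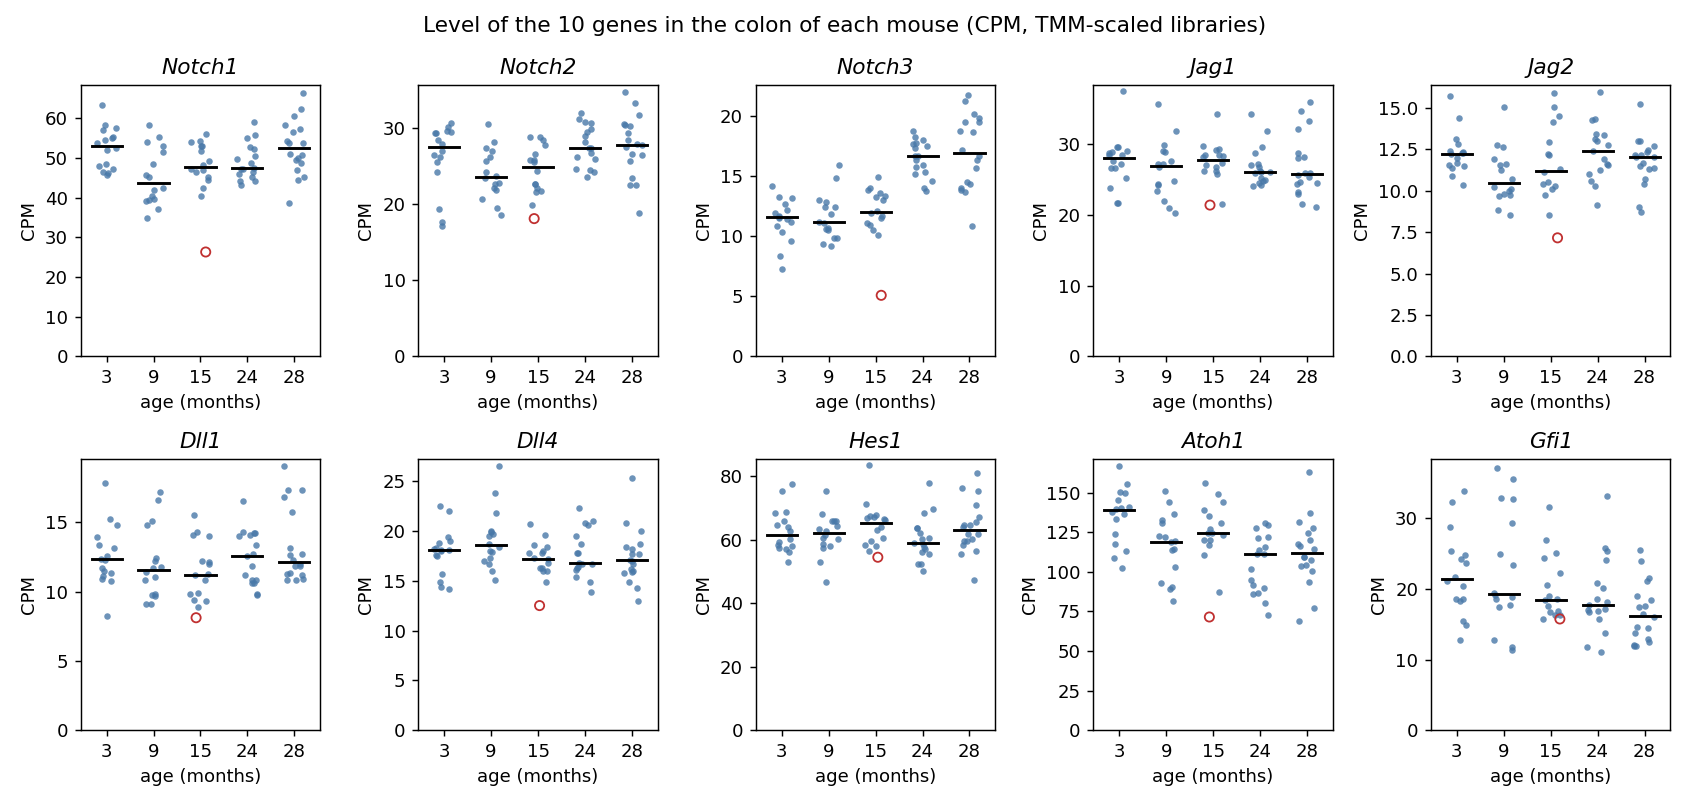
Level of each of the 10 genes in every mouse (CPM, vertical axis) at the 5 ages (months, horizontal axis), with 1 point per mouse and a black bar at the median. The red open circle is 15 mo replicate 16, the lowest mouse of its age in all 10 panels. Notch3 shifts upward between 15 and 24 mo, while Jag1, Dll4 and Hes1 keep their range.

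Notch3, the receptor of mural cells, had the largest change of the 10 genes. Its CPM ranged from 7.28 to 14.1 (median 11.54) at 3 mo, from 9.18 to 15.9 (median 11.1) at 9 mo and from 5.08 to 14.9 (median 11.99) at 15 mo. At 24 mo it ranged from 13.7 to 18.7 (median 16.7) and at 28 mo from 10.8 to 21.7 (median 16.9). The groups of the first 15 months lay together and the 2 oldest groups lay above them, with an overlap at the edge. Of the 35 mice aged 24 or 28 mo, 34 were above the median of the 48 younger mice and 22 were above the highest of them.

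In bulk tissue, fewer cells of a type and less RNA per cell cannot be told apart. In the mid-to-late-life interval, from 15 to 24 mo, Notch3 rose by 0.48 (SE 0.08) on the log2 scale, 39.4% higher, with an edgeR adjusted p of 6.56e-05. By library batch the rise was 0.32, 0.39 and 0.81, and all 17 mice aged 24 mo were above the 15 mo median. Without 15 mo replicate 16, which belonged to the batch of the largest value, it was 0.43 (edgeR adjusted p = 5.00e-05). From 3 to 28 mo the increase was 0.59 (SE 0.08, edgeR adjusted p = 1.41e-08), 50.4% higher, with 0.48, 0.68 and 0.64 in the batches. In the other steps Notch3 differed by 0.03 (9 vs 3 mo), 0.04 (15 vs 9 mo) and 0.04 (28 vs 24 mo), none of them called. Its departure from a straight line (edgeR adjusted p = 0.0843) was lost without 15 mo replicate 16 (0.122), with no filter, with no batch term and at a threshold of 0.05.

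Notch1, the receptor of the crypt progenitors, was lowest at 9 mo. Its CPM ranged from 45.7 to 63.3 (median 53.1) at 3 mo and from 34.9 to 58.4 (median 43.8) at 9 mo. It lay between 26.3 and 55.9 (median 47.7) at 15 mo, between 43.1 and 59.0 (median 47.5) at 24 mo and between 38.5 and 66.4 (median 52.4) at 28 mo. All groups overlapped, and the medians at both ends of the series were within 1 CPM of each other. In the early-to-midlife interval, from 3 to 9 mo, Notch1 fell by 0.22 (SE 0.06, edgeR adjusted p = 0.0275) on the log2 scale. It was the only one of the 10 genes called in this interval, beside 8.69% of all genes tested (3.64% higher and 5.05% lower). The difference was -0.25, -0.12 and -0.27 by batch, with 3 of the 16 mice aged 9 mo above the 3 mo median. From 15 to 28 mo Notch1 rose by 0.15 (SE 0.06, edgeR adjusted p = 0.0477), but the batches gave 0.27, -0.06 and 0.32, and without the least correlated mouse of each age the difference was 0.10 (edgeR adjusted p = 0.137). At 28 vs 3 mo it differed by -0.01 (95% interval -0.12 to 0.11). The departure from a straight line had an edgeR adjusted p of 0.0166.

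Notch2, which acts beside Notch1 in crypt progenitors, had its lowest median at 9 mo too. Its CPM ranged from 17.1 to 30.6 (median 27.4) at 3 mo, from 18.6 to 30.5 (median 23.5) at 9 mo and from 18.1 to 28.8 (median 24.9) at 15 mo. The last groups ranged from 23.6 to 31.9 (median 27.4) at 24 mo and from 18.9 to 34.7 (median 27.8) at 28 mo. The 9 and 15 mo groups were low and the 24 and 28 mo groups high, with overlap throughout. From 15 to 24 mo Notch2 rose by 0.20 (SE 0.07, edgeR adjusted p = 0.0561), with 13 of 17 mice above the 15 mo median, and the batches gave 0.06, 0.18 and 0.38. The difference from 3 to 9 mo was -0.13 (SE 0.07) and was not called (edgeR adjusted p = 0.291), and the test of a straight line gave 0.109, which passed the threshold in 7 alternatives.

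Vascular and stromal markers were measured in the same libraries. From 15 to 24 mo, 9 of 12 endothelial markers rose and none fell (beside 6.28% of all genes higher), among them Esam, a junction protein (0.24, SE 0.05), and Flt1, a receptor for vascular growth factors (0.27, SE 0.05). Over the same interval 1 of 8 markers of pericytes and vascular muscle rose, Pdgfrb, the growth factor receptor of mural cells, by 0.33 (SE 0.06). By 28 mo 5 of these 8 were called higher than at 3 mo (beside 23.5% of all genes) and none lower, and 3 of 8 were higher with no filter or with the epithelial and smooth muscle covariates. The summed level of these 8 markers ranged from 216 to 578 CPM at 3 mo, from 449 to 593 at 15 mo, from 437 to 669 at 24 mo and from 410 to 656 at 28 mo, and that of the endothelial markers from 151 to 190, from 120 to 209, from 181 to 218 and from 166 to 227 at the same ages. No marker of either list was at 0 in all mice. With the mean levels of 8 epithelial and 8 smooth muscle markers as covariates, the Notch3 rise from 15 to 24 mo was 0.48 and still called, and the part of vessels in it was not tested.

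Of the 4 ligands, Dll1 was called in 1 comparison and Jag1, Jag2 and Dll4 in none. Dll1, a Delta ligand that nascent secretory cells present to their neighbours, ranged from 8.23 to 17.9 CPM (median 12.3) at 3 mo, from 9.09 to 17.2 (median 11.6) at 9 mo and from 8.12 to 15.5 (median 11.2) at 15 mo. It ranged from 9.73 to 16.6 (median 12.6) at 24 mo and from 10.8 to 19.0 (median 12.1) at 28 mo. The groups overlapped over nearly their whole range, with the lowest values missing at 28 mo. Dll1 rose from 15 to 28 mo by 0.21 (SE 0.09, edgeR adjusted p = 0.0484), with 0.39, -0.02 and 0.28 in the batches, and this call was lost without the least correlated mouse of each age (0.18, edgeR adjusted p = 0.105). Over all ages Dll1 was not called (edgeR adjusted p = 0.228).

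Dll4, the endothelial Delta ligand that is also made in the crypt, had medians between 16.8 CPM (24 mo) and 18.5 CPM (9 mo) and single mice between 12.5 and 26.5 CPM. It differed by 0.05 (SE 0.06) from 15 to 24 mo, when the endothelial markers rose, and by -0.05 (95% interval -0.18 to 0.07) at 28 vs 3 mo. Neither was called, and 12 of the 35 mice aged 24 or 28 mo were above the median of the younger mice. The largest Dll4 difference was -0.15 (SE 0.07) at 15 vs 9 mo, with -0.24, -0.07 and -0.14 in the batches, and was not called (edgeR adjusted p = 0.463). Jag1, a ligand of both epithelium and vessels, had medians between 25.7 CPM (28 mo) and 28.0 CPM (3 mo) and single mice between 20.3 and 37.5 CPM. Its difference at 28 vs 3 mo was -0.03 (95% interval -0.16 to 0.10), and over all ages its edgeR adjusted p was 0.938. Jag2 had medians between 10.5 CPM (9 mo) and 12.4 CPM (24 mo) and single mice between 7.16 and 15.9 CPM. At 9 vs 3 mo it was -0.18 (SE 0.08) with -0.23, -0.10 and -0.19 in the batches, but it was not called (edgeR adjusted p = 0.172), and over all ages the adjusted p was 0.186.

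Hes1, the repressor induced by Notch, ranged from 52.9 to 77.6 CPM (median 61.6) at 3 mo, from 46.7 to 75.3 (median 62.2) at 9 mo and from 54.5 to 83.7 (median 65.1) at 15 mo. At 24 mo it ranged from 50.02 to 77.9 (median 58.9) and at 28 mo from 47.2 to 81.1 (median 63.1). No group stood out. Its difference at 28 vs 3 mo was 0.03 (SE 0.06, 95% interval -0.08 to 0.14), and at 24 vs 15 mo it was -0.09 (SE 0.06, edgeR adjusted p = 0.314). Over all ages the edgeR adjusted p was 0.519.

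Atoh1, the factor that commits crypt cells to the secretory lineage, had its highest median in the youngest mice. Its CPM ranged from 102 to 166 (median 139) at 3 mo, from 81.3 to 151 (median 119) at 9 mo and from 71.5 to 156 (median 125) at 15 mo. It ranged from 73.0 to 131 (median 111) at 24 mo and from 68.6 to 163 (median 112) at 28 mo. The groups overlapped, but 7 of the 35 mice aged 24 or 28 mo were above the median of the younger mice, and 1 of the 18 mice aged 28 mo was above the 3 mo median. At 28 vs 3 mo Atoh1 fell by 0.26 on the log2 scale (SE 0.08, edgeR adjusted p = 0.0103), 16.4% lower, with -0.21, -0.30 and -0.25 in the batches. From 15 to 24 mo Atoh1 fell by 0.22 (SE 0.09, edgeR adjusted p = 0.0887), with -0.22, -0.12 and -0.29 in the batches. This call was lost in 4 of 12 alternatives (no filter, the replicate block, the covariates named next, and a threshold of 0.05), whose adjusted p ranged up to 0.169. With that drop, 3 of the 10 genes were called in the mid-to-late-life interval, Notch2 and Notch3 higher (beside 6.28% of all genes tested) and Atoh1 lower (beside 7.24%). The step from 3 to 9 mo was of a like size, -0.21 (SE 0.09), and was not called (edgeR adjusted p = 0.143), and the course did not depart from a straight line beyond the spread between mice (edgeR adjusted p = 0.259).

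Epithelial markers were counted in the same comparisons as Atoh1. Of 8 epithelial markers, 4 fell and none rose at 28 vs 3 mo (beside 25.9% of all genes lower), including the adhesion protein Cdh1 (-0.17, SE 0.05), the keratin Krt19 (-0.15, SE 0.06) and the epithelial factor Elf3 (-0.37, SE 0.08). Their summed level ranged from 12704 to 16012 CPM at 3 mo and from 11979 to 14910 at 28 mo, and none was at 0. In 5 of the other alternatives 1 of the 8 was called higher. With the epithelial and smooth muscle markers as covariates, which contain these 8, 1 was lower and 3 were higher. In that fit the Atoh1 difference at 28 vs 3 mo was -0.15 and was not called (edgeR adjusted p = 0.173), and that from 15 to 24 mo was -0.19 (edgeR adjusted p = 0.114). None of the 8 epithelial markers was called from 15 to 24 mo, and the part of the epithelium in the Atoh1 differences was not tested.

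Gfi1, which acts after Atoh1, had the largest standard errors of the 10 genes. Its CPM ranged from 12.8 to 33.8 (median 21.4) at 3 mo, from 11.4 to 37.2 (median 19.3) at 9 mo and from 15.8 to 31.7 (median 18.5) at 15 mo. It ranged from 11.1 to 33.1 (median 17.8) at 24 mo and from 11.9 to 25.5 (median 16.2) at 28 mo. The medians decreased in age order, although the fitted difference at 9 vs 3 mo was 0.03 (SE 0.14). The upper end of the range was highest at 9 mo and lowest at 28 mo. At 28 vs 3 mo Gfi1 fell by 0.41 on the log2 scale (SE 0.13, edgeR adjusted p = 0.00963), 24.9% lower, with 3 of 18 mice above the 3 mo median, and the batches gave -0.14, -0.76 and -0.29. With the epithelial and smooth muscle covariates it was -0.35 (edgeR adjusted p = 0.0472). In no step between neighbouring ages was Gfi1 called, and at 28 vs 15 mo it lay just above the threshold (-0.28, SE 0.13, edgeR adjusted p = 0.100003), where it was called without 28 mo replicate 13. Gfi1 is also made in T cells, and 3 of 8 markers of T and NK cells rose at 28 vs 3 mo while none fell (1 of 8 with those covariates), beside 23.5% of all genes higher, among them the cytotoxic granule genes Gzma (0.45, SE 0.16) and Nkg7 (0.41, SE 0.13). The summed level of these 8 ranged from 29.4 to 59.8 CPM at 3 mo and from 33.8 to 104 at 28 mo. Their part in the Gfi1 level was not tested beyond the relation between mice given further on.

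**Figure D2:**
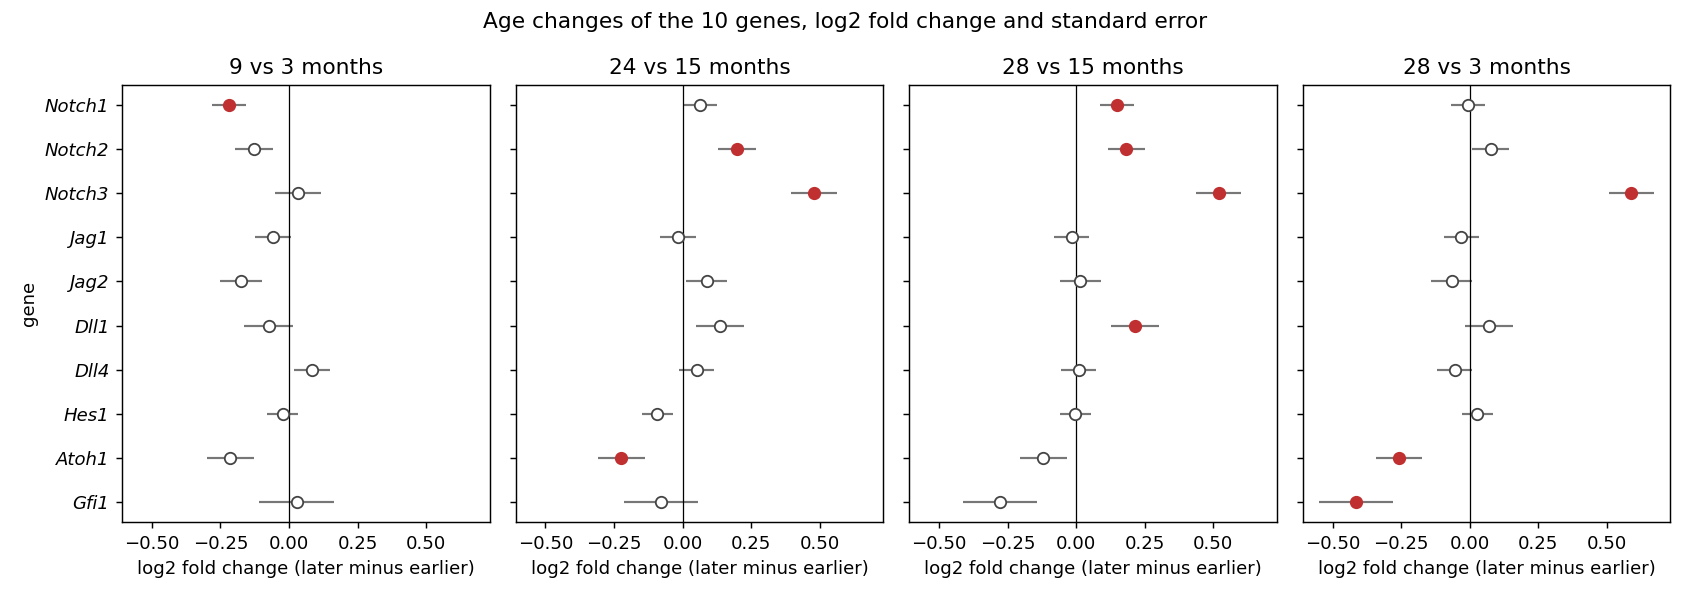
Log2 fold change of each of the 10 genes (later minus earlier age, horizontal axes) in 4 comparisons, with the standard error as a bar. Filled red points are genes called at an adjusted p below 0.1 and open points are not called. Notch3 lies between 0.48 and 0.59 in the 3 comparisons that end late in life, and Atoh1 and Gfi1 are the genes called lower at 28 vs 3 mo.

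Counted by comparison, late life differed from midlife in 4 of the 10 genes at 28 vs 15 mo, Notch1, Notch2 (0.18, SE 0.07, edgeR adjusted p = 0.0277), Notch3 and Dll1, all higher, beside 42.4% of all genes called there and 20.2% called higher. Between 3 and 28 mo 3 of 10 were called, Notch3 higher (beside 23.5% of all genes) and Atoh1 and Gfi1 lower (beside 25.9%). With the epithelial and smooth muscle covariates 1 was higher and 1 lower, Atoh1 being lost. None was called at 15 vs 9 mo (edgeR and DESeq2), where 0.431% of all genes were called and 1 of the 10, Dll4, had an unadjusted p below 0.05. None was called at 28 vs 24 mo (edgeR and DESeq2), where 11.7% of all genes were called (5.66% higher and 6.01% lower) and none of the 10 had an unadjusted p below 0.05. Over the 10 genes the median log2 fold change was 0.06 at 24 vs 15 mo and -0.02 at 28 vs 3 mo, beside 0.00 and -0.01 over all genes tested. The share of the 10 genes called was thus not above that of all genes at 28 vs 15 and 28 vs 3 mo. The median absolute change of the called genes was 0.23 at 28 vs 3 mo, beside 0.59 for Notch3.

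The rest of the pathway was taken from lists of 66 genes, of which 64 were tested. At 28 vs 3 mo 14 of them rose and 16 fell, 46.9% in all beside 49.4% of all genes, and from 15 to 24 mo 8 rose and 4 fell, beside 6.28% and 7.24% of all genes. Among the other receptors and ligands, Notch4, an endothelial receptor, rose by 0.43 (SE 0.06, edgeR adjusted p = 2.44e-09) at 28 vs 3 mo. Dlk1, an imprinted relative of the Delta ligands, fell by 3.63 on the log2 scale (SE 0.25, edgeR adjusted p = 3.22e-21), with a median of 2.38 CPM at 3 mo, 0.866 at 9 mo, 0.318 at 15 mo, 0.1996 at 24 mo and 0.169 at 28 mo. Dner, another Notch ligand relative, fell by 0.36 (SE 0.15). Dll3 did not pass the filter on low counts, with medians of at most 0.134 CPM.

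Of the genes that modify or cut the receptor, the glycosyltransferases Poglut1 (-0.12, SE 0.04) and Rfng (-0.16, SE 0.04) fell among 5 tested, beside 25.9% of all genes lower at 28 vs 3 mo. Lfng did not fall (0.07, SE 0.05). In the list of receptor cleavage, 2 of 10 rose and 4 fell at 28 vs 3 mo (5 and 2 with the covariates, 4 and 4 without the least correlated mouse of each age), beside 23.5% and 25.9% of all genes. The protease Furin was at 0.26 (SE 0.04) and, of the gamma-secretase subunits, Aph1c at 0.44 (SE 0.10) and Aph1b at -0.22 (SE 0.08). Aph1b and Aph1c are close copies of each other, so their split of the counts is uncertain. Among 8 genes of ligand endocytosis 2 rose and 2 fell, shares near the 23.5% and 25.9% of all genes. The ubiquitin ligases Neurl1a (-0.42, SE 0.07) and Mib2 (-0.21, SE 0.06) were lower and the endocytic adaptor Epn2 (0.12, SE 0.04) was higher. In the list of receptor traffic and decay 3 of 12 rose (1 with the covariates), a share near the 23.5% of all genes, and none fell, among them Dtx4 (0.23, SE 0.04), a Deltex ubiquitin ligase, and Numbl (0.19, SE 0.07), a relative of the Notch inhibitor Numb.

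In the nuclear complex 5 of 19 genes rose and 4 fell at 28 vs 3 mo (5 and 2 with the covariates, 4 and 6 without 28 mo replicate 13), shares near the 23.5% and 25.9% of all genes. Rbpj, which encodes RBPJ, rose by 0.10 (SE 0.03, edgeR adjusted p = 0.0124), the coactivators Maml2 and Maml3 by 0.38 (SE 0.07) and 0.21 (SE 0.07), and the corepressor L3mbtl3 fell by 0.26 (SE 0.06). Of 7 other transcriptional targets 1 rose and 2 fell, beside the same shares of all genes, and 2 rose in 7 of the alternatives. Nrarp, a feedback inhibitor that Notch induces, fell by 0.49 (SE 0.09, edgeR adjusted p = 2.73e-06), with -0.46, -0.49 and -0.50 in the batches and medians of 31.6 CPM at 3 mo and 23.5 CPM at 28 mo. Hes5 fell by 0.52 (SE 0.20, edgeR adjusted p = 0.0333) at a level under 1 CPM, but the batches gave 0.14, -0.74 and -0.9975, and Hes7 rose by 0.42 (SE 0.13). Hey1 was 0.17 (SE 0.09) and was not called, but it was 0.19 and called without 28 mo replicate 13. Heyl, a target known from vascular muscle, followed Notch3 in the mid-to-late-life interval, with a rise of 0.51 (SE 0.11, edgeR adjusted p = 0.00195) from 15 to 24 mo, but at 28 vs 3 mo it was 0.16 (SE 0.11) and was not called.

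Genes of the secretory lineages fell more often than they rose. Over 50 tested factors and products, 30 fell and 4 rose at 28 vs 3 mo (60% lower beside 25.9% of all genes), and 16 fell and none rose from 15 to 24 mo (32% beside 7.24%). Among 22 lineage factors 11 fell and 2 rose at 28 vs 3 mo, whereas with the epithelial and smooth muscle covariates 5 fell and 3 rose. Spdef, the goblet factor that Atoh1 induces, fell by 0.33 (SE 0.10, edgeR adjusted p = 0.0316) from 15 to 24 mo and by 0.23 (SE 0.10, edgeR adjusted p = 0.0613) at 28 vs 3 mo. Bhlha15, a factor of secretory granule maturation that plasma cells make too, fell by 0.73 (SE 0.15), the tuft cell master factor Pou2f3 by 0.60 (SE 0.09) and Gfi1b, the paralog of Gfi1 that tuft cells express, by 0.49 (SE 0.16). Neurog3, the factor of enteroendocrine commitment, was 0.21 (SE 0.13) and was not called, while Nkx2-2, which acts after it, rose by 0.54 (SE 0.12).

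Goblet products were lower for 7 of 10 genes and higher for 2, with Clca1 (-0.80, SE 0.18) and Fcgbp (-0.35, SE 0.11), both of the mucus layer, and the membrane protein Ano7 (-0.34, SE 0.04) leading. Enteroendocrine products fell for 6 of 10 and rose for none, among them the hormones Gcg (-0.93, SE 0.07) and Insl5 (-0.98, SE 0.16) and the granule protein Scg3 (-0.71, SE 0.13). Tuft products fell for 6 of 8 and rose for none, with the taste channel Trpm5 at -0.68 (SE 0.07), Rgs13 at -0.69 (SE 0.10) and Sh2d6 at -0.39 (SE 0.08). Of 10 absorptive products 3 fell and 1 rose (1 and 2 with the covariates), with the carbonic anhydrase Car4 at -0.33 (SE 0.07), Ceacam20 at -0.19 (SE 0.06) and the sodium exchanger Slc9a3 at 0.36 (SE 0.12). The goblet sum had medians of 35145 CPM at 3 mo, 39724 at 9 mo, 41582 at 15 mo, 34218 at 24 mo and 28131 at 28 mo, a course with its top at 15 mo, whereas Atoh1 had its top at 3 mo.

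**Figure D3:**
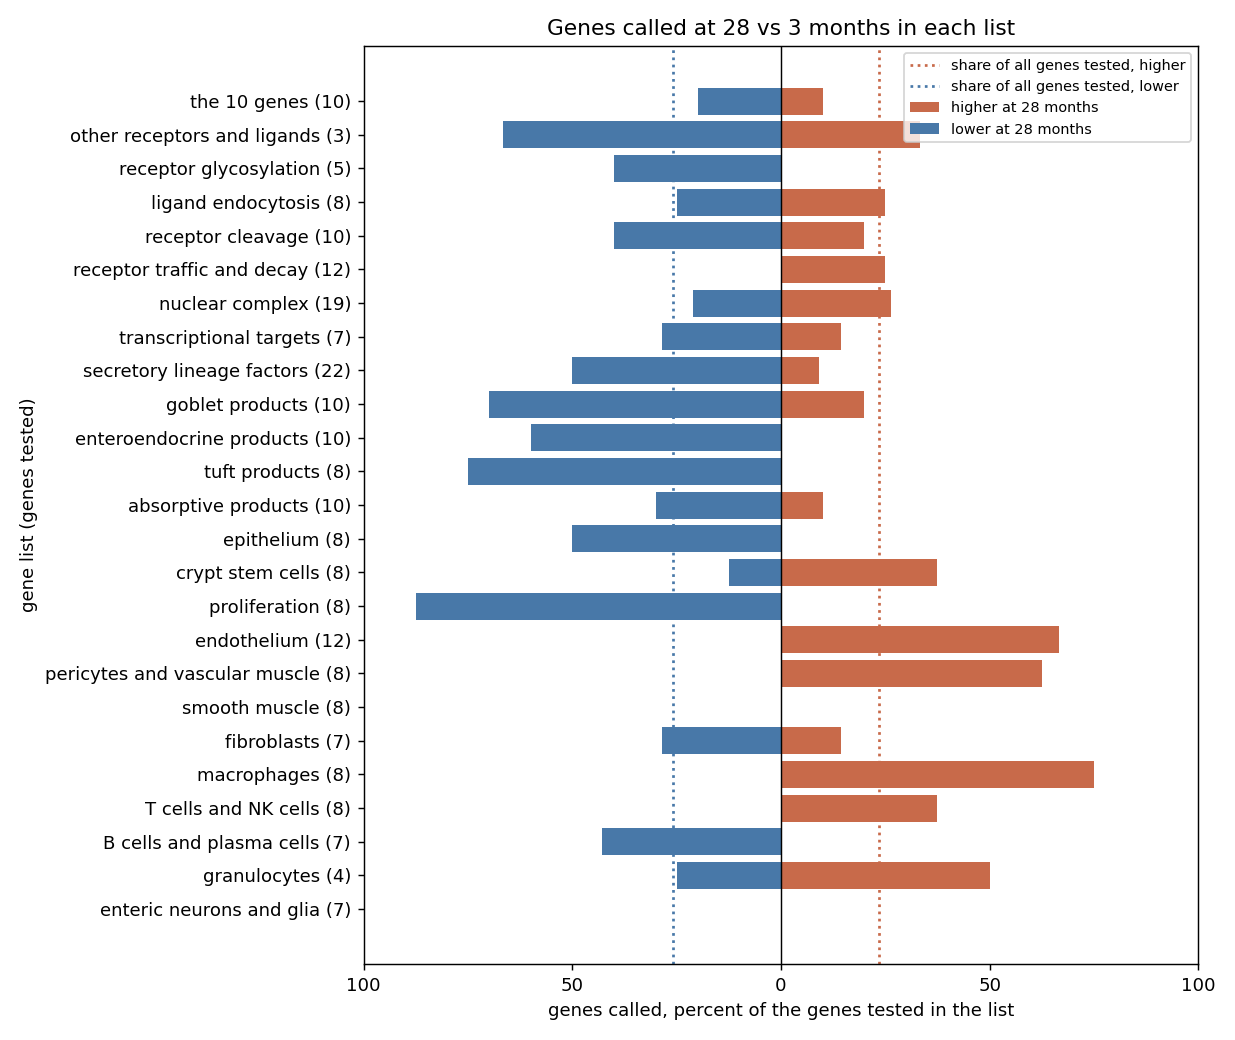
Share of the tested genes of each list that were called higher (right) or lower (left) at 28 vs 3 mo, in percent, with the number tested in brackets. Dotted lines give the shares of all genes tested (23.5% higher, 25.9% lower), and the goblet, enteroendocrine and tuft lists reach further to the lower side while the endothelial and pericyte lists reach to the higher side.

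Further lists were counted at 28 vs 3 mo to place the 10 genes in the tissue. In this comparison 23.5% of all genes tested were called higher and 25.9% lower. Of 8 proliferation genes 7 fell (4 with the covariates and 2 with only the ages compared in the fit), including Top2a (-0.30, SE 0.07), Bub1 (-0.38, SE 0.07) and Mcm5 (-0.21, SE 0.08), all of dividing cells. Of 8 crypt stem cell genes Lgr5, a Wnt-pathway receptor of these cells, fell by 0.26 (SE 0.10), and 3 rose, among them the Wnt inhibitors Rnf43 (0.20, SE 0.05) and Znrf3 (0.14, SE 0.05). Endothelial markers rose for 8 of 12, with Sox17 at 0.41 (SE 0.09), and macrophage markers for 6 of 8, with Cd163, Cd68 and Csf1r at 0.81 (SE 0.14), 0.45 (SE 0.09) and 0.45 (SE 0.10). Rgs5 (0.32, SE 0.12) and Higd1b (0.41, SE 0.19) were the other pericyte markers with large rises. Fibroblast markers fell for 2 of 7 (Col1a1 and Col3a1), near the share of all genes lower, and rose for Dcn. Granulocyte markers rose for 2 of 4 tested (S100a8 and S100a9) and fell for Ly6g, and no marker of smooth muscle (8) or of enteric neurons and glia (7) was called (edgeR). With the covariates 4 of the 7 neuron and glia markers were called lower, and of the 8 smooth muscle markers, which these covariates contain, 2 were higher and 1 lower. With at least 10 counts in every mouse 1 of the 7 neuron and glia markers was called higher.

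Relations between mice were computed for 14 pairs of measures named with the tests, as the correlation of log2 CPM over the 83 mice after the means of age and batch were removed. P-values are two-sided permutation p-values with 100000 resamples, adjusted over the 14 pairs, and the smallest possible p is 1e-05. The mice share library preparation and the tissue content of their pieces, so a correlation can follow either. Within the vessel wall genes, Notch3 was related to Heyl (r = 0.67, rho = 0.56, adjusted permutation p = 2.8e-05 for both), with r between 0.64 and 0.71 in the batches and 0.61 without the 2 farthest mice. Notch3 was also related to the mean of the pericyte markers (r = 0.51, rho = 0.47, adjusted permutation p = 2.8e-05 for both), with r of 0.41, 0.65 and 0.48 in the batches and 0.50 without the 2 farthest mice.

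Mice with more Atoh1 than others of their age and batch also had more of its secretory partners. Atoh1 was related to Spdef (r = 0.60, rho = 0.62), to Dll1 (r = 0.55, rho = 0.53) and to Gfi1 (r = 0.46, rho = 0.48), each with an adjusted permutation p of 2.8e-05 for r and rho and a positive r in all 3 batches (at least 0.50, 0.35 and 0.31). Without the 2 farthest mice r was 0.57, 0.55 and 0.47. The relation of Atoh1 to Hes1, its repressor, was positive too (r = 0.42, rho = 0.37, adjusted permutation p = 0.000117 and 0.00163) and was 0.42 without the 2 farthest mice, but it did not hold in every batch, with r of 0.21, -0.01 and 0.78. Atoh1 was not related to the mean of the goblet products (r = -0.09, rho = -0.11, adjusted permutation p = 0.598 and 0.429). Its relation to Dll4 (r = 0.24, adjusted permutation p = 0.0452) was not seen by rank (rho = 0.16, adjusted permutation p = 0.240) and was 0.20 without the 2 farthest mice (adjusted permutation p = 0.113).

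Of the remaining pairs, Jag2 was related to the mean of the epithelial markers (r = 0.39, rho = 0.26, adjusted permutation p = 0.00104 and 0.0406). Leaving out the 2 farthest mice, among them 15 mo replicate 16, gave an r of 0.22 (adjusted permutation p = 0.0838). No relation was found for Jag1 and the epithelial markers (r = 0.05, rho = -0.02, adjusted permutation p = 0.742 and 0.885), for Dll4 and the endothelial markers (r = -0.04, rho = -0.10, adjusted permutation p = 0.751 and 0.456) or for Gfi1 and the T and NK cell markers (r = -0.05, rho = -0.06, adjusted permutation p = 0.742 and 0.658). Notch1 was related neither to Hes1 (r = 0.04, rho = 0.02, adjusted permutation p = 0.751 and 0.885) nor to the epithelial markers (r = 0.14, rho = -0.13, adjusted permutation p = 0.326 and 0.397), and in both pairs the batches gave r of either sign. Without the 2 farthest mice, among them 15 mo replicate 16, r for Notch1 and the epithelial markers was -0.23 (adjusted permutation p = 0.0767), which passed the 0.1 threshold.

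**Figure D4:**
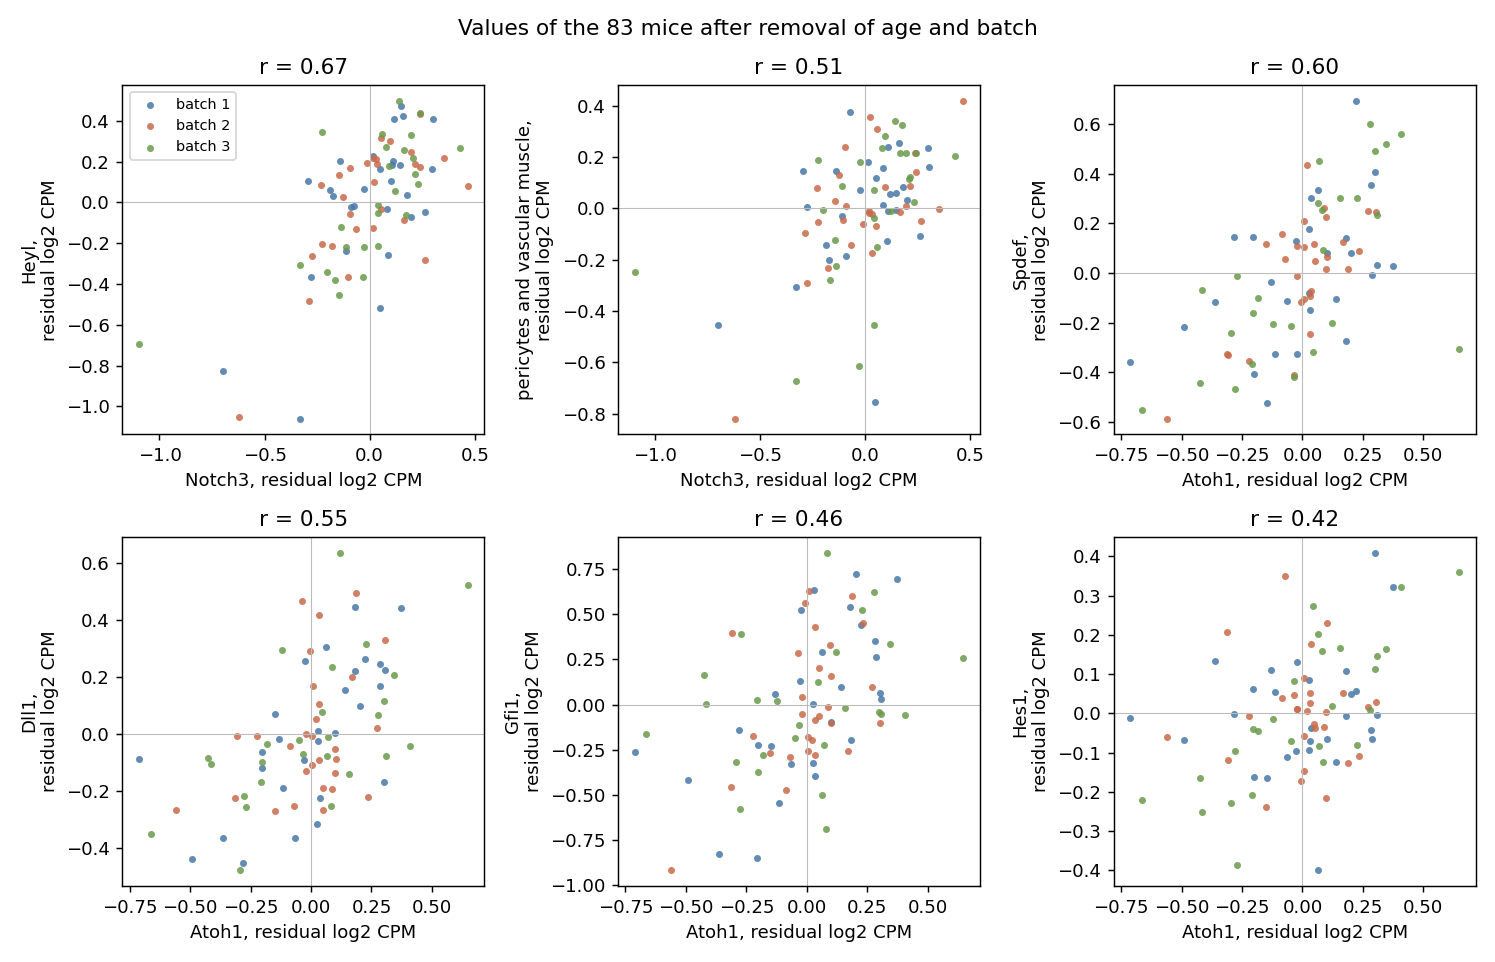
Residual log2 CPM of the 83 mice after the means of age and batch were removed, for 6 of the 14 pairs, with 1 point per mouse colored by library batch and Pearson's r above each panel. The Notch3 and Heyl panel slopes upward in all 3 batches (r = 0.67 over all mice), while the Atoh1 and Hes1 panel slopes upward mainly in batch 3.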

How the data were processed

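The RNA of 83 colon samples was sequenced as read pairs. For the deposited counts the authors used cutadapt 2.8 for trimming, PrinSeq Lite for quality, HISAT2 2.1.0 for alignment to GRCm38, SAMtools 1.9 to keep unique alignments and featureCounts (Subread 2.0.1) with strand. The authors deposited whole counts per gene and mouse, neither normalized nor pooled. Unique mapping drops pairs that near-identical genes share.

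Age and library batch came from the labels. Genes passing filterByExpr (18325) were scaled by TMM and tested in edgeR 4.0.16 (R 4.3.3) with quasi-likelihood F-tests in a single fit of age and batch over all mice, with Benjamini-Hochberg adjustment and a threshold of 0.1. The authors used DESeq2. Departure from a straight line tests all terms of age above the linear one together. TPM used merged exon lengths of GENCODE M21 (GRCm38). Relations used log2 CPM with a prior count of 2. Other software was Python 3.11.15, with pandas 2.3.3, numpy 2.4.6, scipy 1.17.1 and, for plots, matplotlib 3.10.9. The tests were tested on simulated data. Nothing in the labels pairs the mice.

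Besides the 10 genes, the text names 11 genes set by name (Notch4, Dll3, Lfng, Rbpj, Hes5, Hey1, Heyl, Nrarp, Spdef, Neurog3 and Gfi1b) and up to 3 per list with the largest absolute change at 28 vs 3 mo among those called. The 10 genes and the 24 other lists (222 genes) were chosen with earlier results of these data known. The result of a single marker list is not reported here.

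Alternatives were DESeq2 1.42.0, median-of-ratios size factors, no filter, a minimum of 10 counts per mouse, leaving out batch, a replicate block, only the 2 ages compared, a threshold of 0.05, and epithelial and smooth muscle covariates. For the relations they were a prior count of 0.5, other size factors, leaving age and batch in, and leaving out the 2 farthest mice. Chosen after seeing the data were fits without 15 mo replicate 16, without 28 mo replicate 13 and without the mouse of each age that correlated least with its group.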

Additional observations from a re-analysis of the deposited data

How the results depend on the processing

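From 15 to 24, 15 to 28 and 3 to 28 mo, Notch3 was called higher under all alternatives run, between 0.43 and 0.62 on the log2 scale. The number of the 10 genes called moved by more than 1.5 times in few settings. With epithelial and smooth muscle covariates it was 2 at 9 vs 3 mo, and at a threshold of 0.05 it was 1 at 24 vs 15 mo. Genes departing from a straight line numbered 1 with no filter, with no batch term, without 15 mo replicate 16 and at a threshold of 0.05. Notch2 passed that test in 7 settings. Atoh1 at 24 vs 15 mo was lost with no filter (adjusted p = 0.169), and Gfi1 over all ages with the covariates (0.110). Without 28 mo replicate 13, 5 of the 10 genes were called at 28 vs 15 mo, with Gfi1 gained. Causes were not tested.

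Signs of fold changes changed only for values that were not called, apart from the epithelial marker Krt19, which was 0.0138 at 28 vs 3 mo with the covariates that contain it. Notch1 at 28 vs 3 mo was 0.0020 with median-of-ratios size factors, 0.0018 with at least 10 counts in every mouse, 0.0025 with no batch term, 0.017 with the covariates, 0.0018 in DESeq2 and 0.0070 without 15 mo replicate 16, beside -0.021 without 28 mo replicate 13. With the covariates Notch2 was -0.015 and Jag2 0.010 at 28 vs 3 mo, and Hes1 was 0.013 at 9 vs 3 mo. Gfi1 at 9 vs 3 mo was -0.022 with the replicate block and -0.016 without the least correlated mouse of each age. Among the relations, the r of Atoh1 and goblet products was 0.017 with age and batch left in. Without the 2 farthest mice r was -0.074 for Notch1 and Hes1. For Notch1 and the epithelial markers it was then -0.231 (adjusted permutation p = 0.0767), which passed the 0.1 threshold.

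The replicate numbers showed no clear pairing of the mice. Over 161 same-numbered pairs of mice of different ages the median correlation of deviations was 0.0103, beside -0.00263 in differently numbered pairs. Of the same-numbered pairs 27 were above 0.1, and 3 of 83 mice correlated best with their own number, with no expected value computed for either. With the replicate block, 2 of the 10 genes were called at 24 vs 15 mo (Atoh1 lost, adjusted p = 0.116) and 3 departed from a straight line (Notch2 gained), and the other comparisons kept their numbers of calls (1, 0, 0, 4 and 3).

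Over all genes, 1593 calls at 9 vs 3 mo became 882 with no filter, 901 with only those 2 ages and 1047 without the least correlated mice, and 2476 at 24 vs 15 mo became 1524 with no filter. At 15 vs 9 mo 79 became 264 with the covariates and 122 without 15 mo replicate 16, and 58.2% of the calls were higher beside 44.8% with at least 10 counts in every mouse and 42.5% without 28 mo replicate 13. Departures from a straight line went from 2969 to 4484 with the covariates.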
